A study of Mus musculus with 21 samples.

Results

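The genes of synaptic vesicle exocytosis were examined in bulk RNA-seq of mouse neocortex, comparing rNLS8 mice with wild-type (WT) mice. They were taken by symbol from the deposited count table, as all rows of the synaptotagmins (Syt), syntaxins (Stx), syntaxin-binding proteins (Stxbp), vesicle-associated membrane proteins (Vamp), Snap proteins, complexins (Cplx), RIMs (Rims) and Munc13 proteins (Unc13). These names matched 64 of 48474 rows. Of these, 61 had enough counts to be tested, among 19052 genes tested in all. The other 3 were Cplx4 with 24 counts over all mice, Syt8 with 5 and Stx19 with 0.

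The table covered 21 mice, 11 WT and 10 rNLS8. rNLS8 mice carry a doxycycline-suppressed transgene for human TDP-43ΔNLS, a TDP-43 without its nuclear localization signal, together with a transactivator driven by the neurofilament heavy chain promoter, so that it is made mainly in neurons. All mice of both genotypes had received 350 µg of the same non-targeting antisense oligonucleotide in 10 µL into the cerebral ventricles at 17 to 19 weeks of age. Doxycycline at 200 mg/kg diet was withdrawn 2 weeks after that injection, and the neocortex was collected after 3 weeks without it. The labels call the controls WT, while the series text describes them as monogenic littermates, so a control may carry either transgene alone. Batch A held 4 WT and 3 rNLS8 mice and batch B held 7 WT and 7 rNLS8 mice, and the labels give every library its own mouse number. The sex of each mouse was not labelled. The tissue is called neocortex here after the labels, and the methods of the study give brain cortex, whereas one of its figure legends gives hippocampus for rNLS8 mice.

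Vesicle exocytosis is driven by SNARE proteins. A vesicle SNARE (synaptobrevin, a VAMP) zips together with syntaxin and SNAP25 of the plasma membrane and pulls both membranes into contact. Relatives of Sec1 hold and guide syntaxin, Munc13 opens it and primes the vesicle, RIM tethers vesicles and calcium channels at the active zone, complexin clamps and supports the assembled complex, and synaptotagmin triggers fusion when calcium enters. The families also hold relatives that act on endosomes, the Golgi or autophagosomes, and these share the names but not the synaptic role.

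The total count per mouse lay between 20700912 and 22263809. Markers of cortical excitatory neurons (Tbr1, Cux2) had at least 1386 normalized counts in every mouse. Tardbp, the mouse gene of TDP-43, had 2254 to 2829 normalized counts in WT and 2362 to 5054 in rNLS8 mice, above all WT mice in 9 of 10, although these counts do not measure the human transgene as such. Its log2 fold change was 0.26 in batch A (edgeR adjusted p = 0.191) and 0.79 in batch B (adjusted p = 1.42e-10). One rNLS8 library of batch A, mouse T61340, stood apart in that its deviation from the other mice fell with the exon length of the genes (Spearman rho of -0.464 across genes, against -0.18 to 0.312 in the other 20 libraries). Where leaving out this mouse changed a call, the value without it is given.

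Members that fell outnumbered members that rose. In the edgeR quasi-likelihood test with batch as a covariate and Benjamini-Hochberg adjustment over all genes tested, 25 of the 61 members (41.0%) were lower and 11 (18.03%) were higher in rNLS8 mice at an adjusted p under 0.05, and 25 were not called. Of all 19052 genes tested, 21.2% were called lower and 22.4% higher. The median log2 fold change was -0.08 over the members and -0.0019 over all genes tested. The members' median moved to -0.05 without mouse T61340 and to -0.02 without mice T60303 and T61340, with that of all genes at -0.00072 and -0.0038. Scaling by library size only put it at -0.0040 and that of all genes at 0.08. In 10 members every rNLS8 mouse lay below every WT mouse (Rims1, Unc13a, Cplx2, Snap25, Vamp1 and others), while in 1, Stx5a, every rNLS8 mouse lay above. Such separation was found downward in 3.67% and upward in 3.71% of all genes tested.

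**Figure D1:**
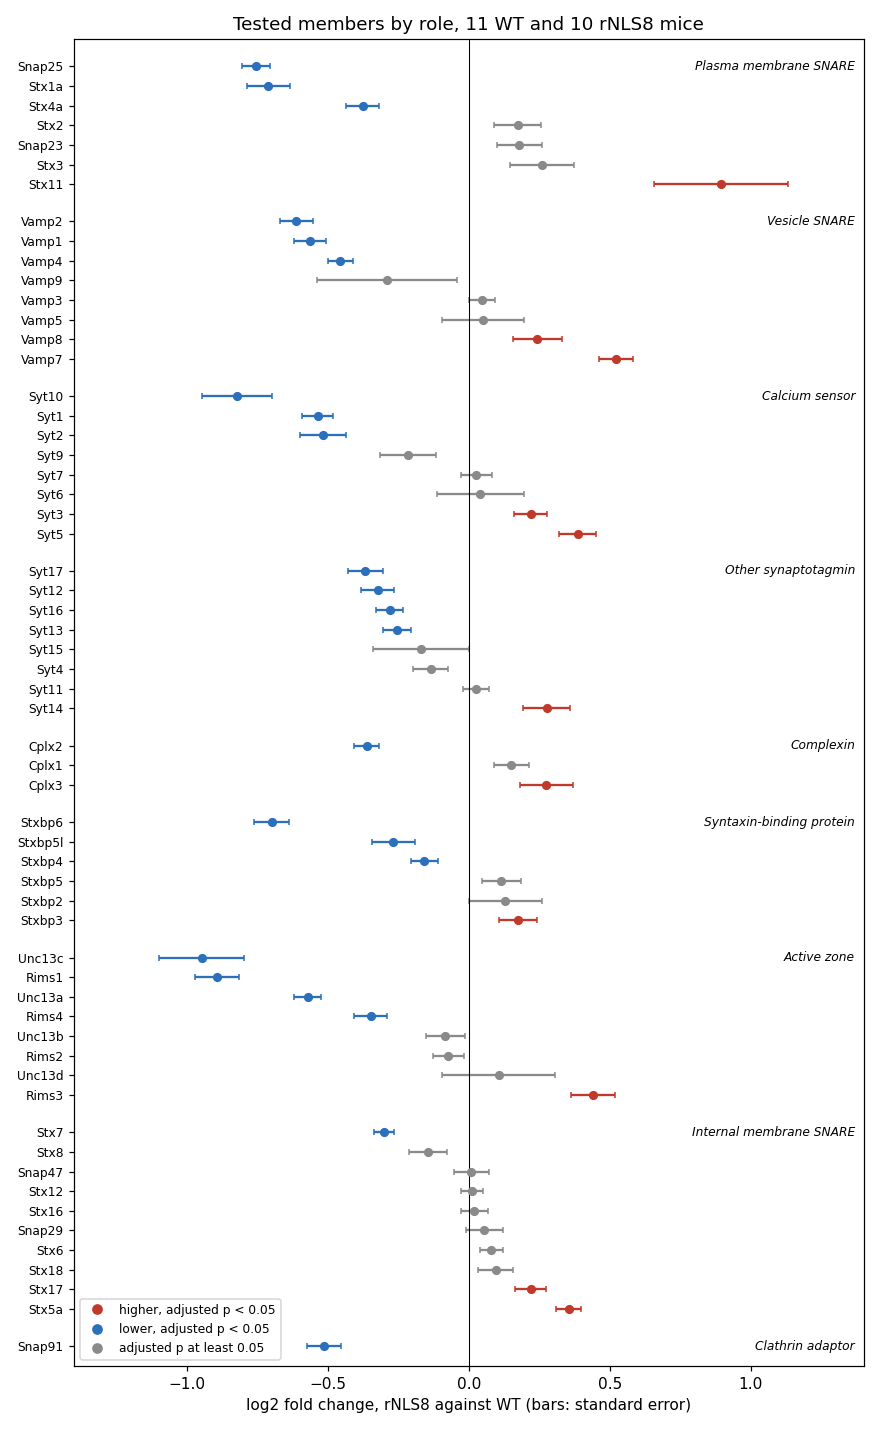
Log2 fold change of rNLS8 against WT mice for 59 of the 61 tested members, grouped by role, with bars for the standard error and colours for the call at an adjusted p of 0.05. The largest falls were those of Unc13c (-0.95) and Rims1 (-0.89), and the largest rise was that of Stx11 (0.90), a gene with few counts.

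Most core genes of neuronal vesicle fusion fell. Among 18 genes listed as this core (among them Stx1a, Snap25, Vamp1, Vamp2, Syt1, Syt2, Syt7, Cplx1 to Cplx3, Rims1 to Rims3 and Unc13a to Unc13c), 12 were lower, 2 were higher and 4 were not called, with a median log2 fold change of -0.50. Among the 43 tested members outside that list, 13 were lower (30.2%), 9 were higher (20.9%) and 21 were not called, with a median of 0.02. Over all genes tested, 21.2% were lower and 22.4% higher. The core list was drawn up with earlier results of these data known. Summed over all members, the level was 13119 to 14222 CPM (counts scaled to the same total in every library) in WT and 10530 to 12083 CPM in rNLS8 mice, without overlap.

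General neuronal markers moved too. Of 8 such markers, 5 were lower, among them Nefl (log2 fold change -1.15) and Camk2a (-0.65), whereas Rbfox3 (-0.10), Tubb3 (-0.07) and Eno2 (0.05) were not called. Their sum was 7047 to 9138 CPM in WT and 5343 to 6323 CPM in rNLS8 mice, without overlap. Camk2a weighed most in this sum, with a mean of 85249 normalized counts in WT and 53477 in rNLS8 mice. All 6 inhibitory neuron markers were lower, with sums of 631 to 1053 CPM in WT and 507 to 815 CPM in rNLS8 mice. Of 6 excitatory neuron markers 1 was higher and 1, Neurod6, was lower, and the sums overlapped at 1403 to 2064 CPM and 1572 to 2439 CPM. Of 6 astrocyte markers 5 were lower, of 6 microglia markers 4 were higher and 1 lower, and none of 6 oligodendrocyte markers was called. These marker counts stand beside 21.2% lower and 22.4% higher over all genes tested. None of the markers listed for these cell types was at 0 in any mouse. In bulk tissue, fewer cells of a type and less RNA per cell cannot be told apart, and the part of these marker shifts in the changes of the members was not tested.

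Promoters are shown for 3 members that moved in opposite directions, to set the bases before their start sites beside the expression data. Each is the 250 bases before the RefSeq start on GRCm38.p6, on the strand of the gene. Rims1, the central scaffold of the active zone, and Stx1a, a syntaxin of the presynaptic membrane, were lower in rNLS8 mice, and Cplx3, a minor complexin of the cortex, was higher, a call that was lost without mouse T61340 (adjusted p = 0.0550). They lie at chr1:22806159-22806408 (minus strand), chr5:135023232-135023481 (plus strand) and chr9:57606282-57606531 (minus strand). Capitals mark the GC box (GGGCGG), the E-box (CACGTG) and the CCAAT box (CCAAT), on either strand, so that a CCAAT box on the other strand reads ATTGG.
Rims1: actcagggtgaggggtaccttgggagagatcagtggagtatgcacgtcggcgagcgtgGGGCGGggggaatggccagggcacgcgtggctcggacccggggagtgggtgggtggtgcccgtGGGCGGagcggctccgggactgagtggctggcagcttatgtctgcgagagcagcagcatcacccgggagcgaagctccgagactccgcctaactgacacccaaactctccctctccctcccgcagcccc
Stx1a: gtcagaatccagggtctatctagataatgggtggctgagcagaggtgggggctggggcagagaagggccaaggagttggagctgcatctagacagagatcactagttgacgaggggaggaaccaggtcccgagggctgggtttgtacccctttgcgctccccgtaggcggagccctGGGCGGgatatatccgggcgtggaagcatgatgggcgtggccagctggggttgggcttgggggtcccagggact
Cplx3: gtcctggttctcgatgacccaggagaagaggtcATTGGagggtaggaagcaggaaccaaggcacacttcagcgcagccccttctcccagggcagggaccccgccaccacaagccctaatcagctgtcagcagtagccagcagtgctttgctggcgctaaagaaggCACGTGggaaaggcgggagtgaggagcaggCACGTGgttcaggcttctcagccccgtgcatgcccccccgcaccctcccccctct
Rims1 held 2 GC boxes, Stx1a held 1, and Cplx3 held 2 E-boxes and 1 CCAAT box.

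Promoter entries were found for 48 of the 64 members, 59 entries in all. A GC box stood in 62.7% of them, against 32.7% of 32851 mouse promoters of the same length. It stood in 71.4% of 21 entries of lower members, 60.0% of 10 entries of higher members and 66.7% of 24 entries of members not called. The E-box stood in 13.6% of the members' entries and 6.02% of all promoters, the CCAAT box in 33.9% and 33.8%, and the cAMP response element (TGACGTCA) in 1.69% and 1.55%. A match describes the letters of the window and no binding.

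Among SNAREs of the plasma membrane, Snap25, Stx1a and Stx4a were lower in rNLS8 mice and Stx11 was higher. Snap25, which gives the SNARE bundle its pair of SNAP25 helices, had 40215 to 54304 normalized counts in WT mice (median 47012) and 23036 to 31015 in rNLS8 mice (median 28380). It fell by 40.8% (log2 fold change -0.76, SE 0.049, adjusted p = 1.33e-11), and the groups did not overlap. Stx1a, a syntaxin that serves fast transmitter release, ranged from 4310 to 6465 in WT (median 5354) and from 2585 to 4446 in rNLS8 mice (median 3251). Its log2 fold change was -0.71 (SE 0.077, adjusted p = 5.50e-08). Within each batch the groups did not overlap. Mouse T61340 of batch A, with 4446, lay above the lowest WT mouse of batch B, and without it the log2 fold change was -0.76. Stx4a, a syntaxin of regulated secretion in many cells, was also lower (-0.38, adjusted p = 1.34e-05). Its exons overlap those of a gene on the opposite strand by 124 bases. Whether counting used strand was not given, so reads of that gene may be part of its count, which was not tested. In RefSeq on GRCm38.p6, Snap25 lies at chr2:136713439-136782428 (plus strand) and Stx1a at chr5:135023482-135051100 (plus strand).

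Snap23, the relative of SNAP25 in cells other than neurons and in dendrites, had a log2 fold change of 0.18 (adjusted p = 0.0702) and was not called. It passed as higher without mouse T61340 (0.22, adjusted p = 0.0194), and also without WT mouse T70264, T69523 or T61333. Stx2 (0.17) and Stx3 (0.26) were not called either, but Stx3 passed as higher without WT mouse T69532, T70260 or T61333 or rNLS8 mouse T69524 (lowest adjusted p of 0.0388). Stx11, a syntaxin of immune cells, was higher (0.90, SE 0.24, adjusted p = 0.00343), but the gene had 165 counts over all mice, with 2.04 to 8.29 normalized counts in WT and 4.08 to 17.0 in rNLS8 mice.

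SNAREs of the vesicle side were also divided, with 3 of 8 lower, 2 higher and 3 not called. Vamp2, the synaptobrevin of most forebrain synapses, had 17457 to 25036 normalized counts in WT mice (median 20861) and 10900 to 19483 in rNLS8 mice (median 13324). It fell by 34.5% (log2 fold change -0.61, SE 0.060, adjusted p = 1.17e-08). Within each batch all rNLS8 mice lay below all WT mice. Mouse T61340 of batch A lay above the lowest WT mice of batch B, and without that mouse the log2 fold change was -0.66. Vamp1, the second synaptobrevin, ranged from 2565 to 3337 in WT (median 2921) and from 1647 to 2359 in rNLS8 mice (median 1904), without overlap (log2 fold change -0.56, SE 0.056, adjusted p = 1.70e-08). Vamp4, a SNARE of the trans-Golgi and of endosomes that also takes part in asynchronous release, fell from 1534 to 1811 (median 1665) to 960 to 1372 (median 1225), with a log2 fold change of -0.46 (adjusted p = 8.17e-09). By position, Vamp2 lies at chr11:69088528-69092381 (plus strand), Vamp1 at chr6:125215581-125222306 (plus strand) and Vamp4 at chr1:162570515-162599082 (plus strand).

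Vamp7 moved the other way. This longin SNARE, known for its insensitivity to tetanus toxin and for neurite growth and spontaneous release, had 483 to 676 normalized counts in WT (median 543) and 646 to 966 in rNLS8 mice (median 799). It rose by 43.6% (log2 fold change 0.52, SE 0.061, adjusted p = 1.88e-07), and within each batch all rNLS8 mice lay above all WT mice. Vamp8, a SNARE of late endosomes and autophagosome fusion, was higher by a log2 fold change of 0.24 (adjusted p = 0.0236), with overlapping groups, and lost the call without mouse T60303 (adjusted p = 0.0518) or T70261, without T60303 and T61340 together (adjusted p = 0.0949), without the batch term in edgeR and in DESeq2, and in batch A alone. A further row of the table for the same symbol was not called (0.20, adjusted p = 0.123), so the level of Vamp8 is uncertain. Vamp3 (0.05), Vamp5 (0.05) and Vamp9 (-0.29) were not called, and Vamp3 and Vamp5 also had a further row each, with log2 fold changes of 0.05 and 0.06.

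**Figure D2:**
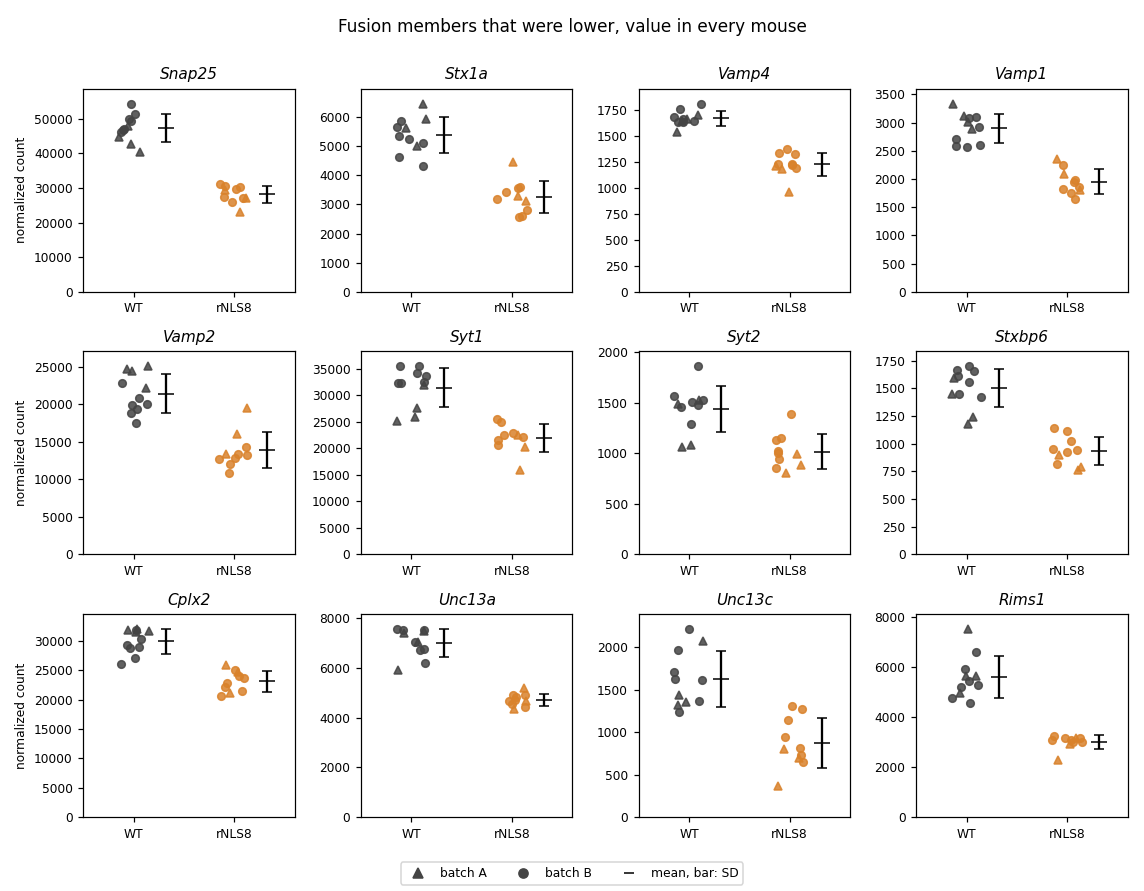
Normalized counts of 12 lower members in every mouse (triangles batch A, circles batch B), with the mean and SD beside each group. Snap25, Vamp1, Vamp4, Stxbp6, Cplx2, Unc13a and Rims1 were separated completely between 11 WT and 10 rNLS8 mice, and in Stx1a and Vamp2 only mouse T61340 of batch A reached into the WT range, which it did among WT mice of batch B.

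Synaptotagmins that bind calcium were divided, with 3 of 8 lower, 2 higher and 3 not called. Syt1, the main fast calcium sensor of the forebrain, had 25153 to 35426 normalized counts in WT mice (median 32314) and 15953 to 25542 in rNLS8 mice (median 22300). It fell by 31.0% (log2 fold change -0.54, SE 0.056, adjusted p = 3.12e-08). Within each batch the groups did not overlap, with 25153 to 31821 in WT against 15953 to 22465 in batch A and 32258 to 35426 against 20594 to 25542 in batch B. Syt2, the fast sensor of many inhibitory and brainstem terminals, ranged from 1068 to 1862 in WT (median 1491) and from 802 to 1394 in rNLS8 mice (median 997), with overlap (log2 fold change -0.52, SE 0.083, adjusted p = 1.65e-05). Syt10, which controls secretion of insulin-like growth factor in olfactory neurons, fell from 351 to 551 (median 437) to 120 to 358 (median 268), with a log2 fold change of -0.82 (SE 0.12, adjusted p = 8.42e-06). In the same annotation, Syt1 lies at chr10:108497650-109010980 (minus strand), Syt2 at chr1:134646534-134753149 (plus strand) and Syt10 at chr15:89773714-89841980 (minus strand).

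No other calcium-binding synaptotagmin was called lower. Syt7, the high-affinity sensor of asynchronous release and facilitation, lay at 6400 to 8386 in WT (median 7207) and 6271 to 8452 in rNLS8 mice (median 7262), nearly the same range (log2 fold change 0.03, SE 0.055, adjusted p = 0.723). Syt5 rose from 2687 to 3720 (median 3215) to 3535 to 5563 (median 4117), with a log2 fold change of 0.39 (SE 0.065, adjusted p = 3.29e-05), and 9 of 10 rNLS8 mice were above all WT mice. Its highest value was that of mouse T61340, and without that mouse the log2 fold change was 0.33 (adjusted p = 2.13e-05). Syt3 was higher by 0.22 (adjusted p = 0.00325), and Syt6 (0.04) and Syt9 (-0.22) were not called. Syt9 passed as lower without WT mouse T70264 or T69523 (lowest adjusted p of 0.0345). Syt6 had a further row in the table, at 0.01.

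The synaptotagmins usually regarded as independent of calcium had log2 fold changes between -0.37 and 0.28. Of 8 tested, Syt17 (-0.37), Syt12 (-0.32), Syt16 (-0.28) and Syt13 (-0.25) were lower, Syt14 (0.28) was higher, and Syt4 (-0.14), Syt11 (0.02) and Syt15 (-0.17) were not called. The shares over all genes tested were 21.2% lower and 22.4% higher. Syt4 passed as lower without rNLS8 mouse T70263 or T61342 or WT mouse T61333 (lowest adjusted p of 0.0268). Syt11, which restrains endocytosis and is abundant in cortex, had 15277 to 19004 normalized counts in WT and 14621 to 18830 in rNLS8 mice. Exons of Syt4, Syt12 and Syt16 overlap transcripts of the opposite strand.

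The complexins differed among themselves. Cplx2, the complexin of most excitatory cortical terminals, fell from 26045 to 32072 (median 30441) to 20622 to 25924 (median 23322), without overlap (log2 fold change -0.36, SE 0.045, adjusted p = 5.19e-07). Cplx1 was not called, with 12261 to 16539 in WT (median 14753) and 13748 to 22140 in rNLS8 mice (median 16169). Its log2 fold change of 0.15 (SE 0.064) missed the threshold (adjusted p = 0.0573). It passed in 5 of the 21 fits that leave out a single mouse (without WT mouse T70264 or T69532, or rNLS8 mouse T70263, T69531 or T60303), with the lowest adjusted p of 0.0136 without T60303. It lay at 0.10 without mouse T61340 (adjusted p = 0.151). Cplx3 had 304 to 473 in WT (median 368) and 350 to 624 in rNLS8 mice (median 437), a log2 fold change of 0.28 (adjusted p = 0.0203) that dropped to 0.22 (adjusted p = 0.0550) without mouse T61340. The difference between complexin genes was not itself tested. On this build, Cplx1 lies at chr5:108518554-108550027 (minus strand), Cplx2 at chr13:54301964-54383923 (plus strand) and Cplx3 at chr9:57599992-57606281 (minus strand).

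**Figure D3:**
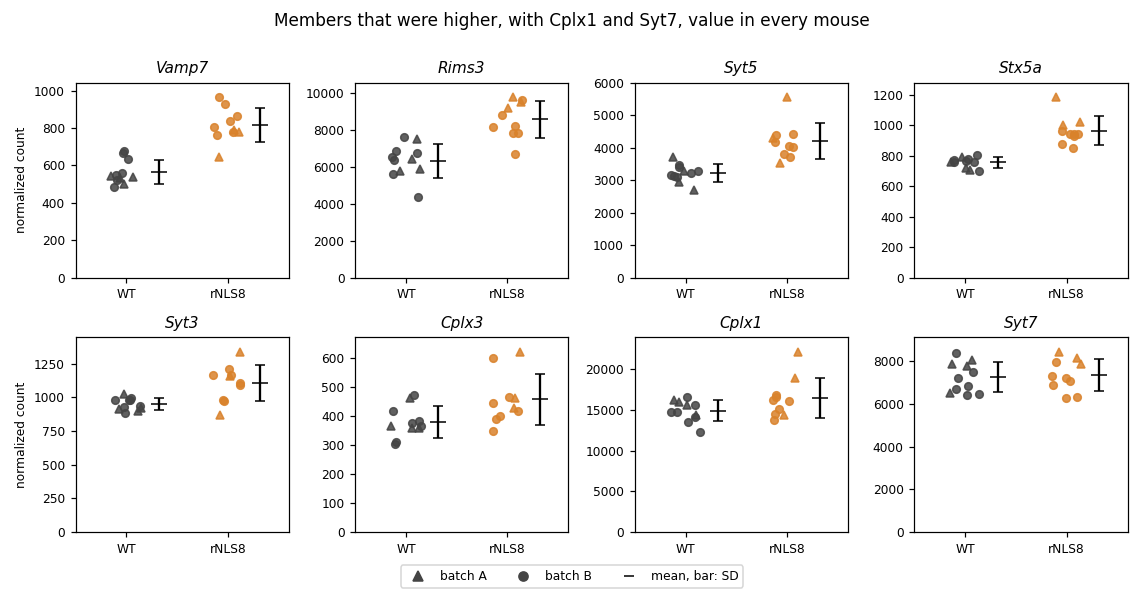
Normalized counts of 6 members that were higher and of Cplx1 and Syt7, which were not called, in every mouse (triangles batch A, circles batch B), with the mean and SD beside each group. Vamp7, Rims3 and Syt5 had 9 of 10 rNLS8 mice above all WT mice and Stx5a had all 10, while Syt7 spanned nearly the same range in both groups.

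Syntaxin-binding proteins moved both ways. Stxbp6 (amisyn), a soluble protein with a VAMP-like domain that binds syntaxin, ranged from 1173 to 1698 in WT (median 1558) and from 762 to 1138 in rNLS8 mice (median 930), with a log2 fold change of -0.70 (SE 0.062, adjusted p = 2.41e-09). Stxbp5l (tomosyn-2), an inhibitor of SNARE assembly, was lower by a log2 fold change of -0.27 (adjusted p = 0.00547), and by -0.21 (adjusted p = 0.00480) without mouse T61340, its lowest value. Stxbp4, a partner of syntaxin 4, was lower (-0.16, adjusted p = 0.00882), whereas Stxbp3, another partner of syntaxin 4, was higher (0.17, adjusted p = 0.0360). The call of Stxbp4 was lost in each batch alone and under scaling by library size only. Stxbp3 was not called when any one of 10 mice was left out, nor with Xist as a covariate. Stxbp2 (0.13) was not called. Stxbp5 (0.12) was not called over all mice, but passed as higher without mouse T61340 (0.17, adjusted p = 0.0240). By position, Stxbp6 lies at chr12:44852484-45075118 (minus strand).

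Proteins of the active zone included Unc13c and Rims1, which had the lowest log2 fold changes of all members. Of 8 genes, 4 were lower, 1 was higher and 3 were not called, beside 21.2% lower and 22.4% higher over all genes tested. Rims1 had 4552 to 7533 normalized counts in WT mice (median 5462) and 2275 to 3247 in rNLS8 mice (median 3102). It fell by 46.2% (log2 fold change -0.89, SE 0.077, adjusted p = 1.64e-09), and the rNLS8 mice were not only lower but also close together apart from mouse T61340. Without that mouse, whose value was the lowest, the log2 fold change was -0.84. The further row of Rims1 fell alike (-0.90, adjusted p = 5.23e-09). Rims2, its nearest relative, was not called, with 2039 to 3010 in WT (median 2516), 1832 to 2652 in rNLS8 mice (median 2414) and a log2 fold change of -0.07 (SE 0.056, adjusted p = 0.311). The short RIMs, which lack the regions that bind Rab3 and Munc13, went in opposite directions. Rims3 rose from 4388 to 7605 (median 6410) to 6692 to 9794 (median 8505), with a log2 fold change of 0.44 (SE 0.078, adjusted p = 5.68e-05) and 9 of 10 rNLS8 mice above all WT mice. Rims4 fell by 21.4% (log2 fold change -0.35, adjusted p = 3.23e-05). In the same annotation, Rims1 lies at chr1:22285972-22806158 (minus strand), Rims2 at chr15:39198286-39684372 (plus strand) and Rims3 at chr4:120854779-120896580 (plus strand).

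Of the Munc13 genes, Unc13a and Unc13c were lower. Unc13a (Munc13-1), the main priming factor of cortical excitatory synapses, had 5941 to 7572 normalized counts in WT mice (median 7056) and 4359 to 5207 in rNLS8 mice (median 4694). It fell by 32.7% (log2 fold change -0.57, SE 0.047, adjusted p = 8.14e-10), without overlap. Its exons overlap those of Colgalt1 on the opposite strand by 495 bases, and whether the counting used strand was not given in the sources used here. Unc13c (Munc13-3), best known from the cerebellum, ranged from 1240 to 2215 in WT (median 1620) and from 366 to 1304 in rNLS8 mice (median 808). Its log2 fold change was lower than that of any other member (-0.95, SE 0.15, adjusted p = 1.71e-05), with 8 of 10 rNLS8 mice below all WT mice, and it was -0.85 without mouse T61340, the lowest of them. Unc13b (Munc13-2) was not called, with 699 to 1076 in WT (median 972), 728 to 1117 in rNLS8 mice (median 878) and a log2 fold change of -0.08 (adjusted p = 0.361). Unc13d, the Munc13 of blood cells, had 14.4 to 41.0 counts in WT and 15.7 to 49.97 in rNLS8 mice and was not called. On this build, Unc13a lies at chr8:71624125-71671774 (minus strand), Unc13b at chr4:43046193-43264873 (plus strand) and Unc13c at chr9:73479422-74008155 (minus strand).

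Of 10 SNAREs of internal membranes tested, 1 was lower, 2 were higher and 7 were not called, beside 21.2% lower and 22.4% higher over all genes tested. Stx7, a syntaxin of late endosomes, fell from 2179 to 2483 (median 2234) to 1623 to 2049 (median 1875), without overlap (log2 fold change -0.30, SE 0.036, adjusted p = 2.26e-07). Stx5a, the syntaxin of transport between endoplasmic reticulum and Golgi, rose from 701 to 806 (median 762) to 850 to 1185 (median 944), with a log2 fold change of 0.35 (SE 0.046, adjusted p = 8.36e-07) and of 0.32 without mouse T61340. It was the single member in which all rNLS8 mice lay above all WT mice. Stx17, which joins autophagosomes to lysosomes, was higher by 0.22 (adjusted p = 0.00226). The log2 fold changes of Stx6, Stx8, Stx12, Stx16, Stx18, Snap29 and Snap47 lay between -0.14 and 0.10. Of these, Stx8 (-0.14) passed as lower without mouse T61340 (-0.20, adjusted p = 0.00842). Snap91 (AP180), a clathrin assembly protein that matched the names without being a SNARE, fell by 30.0% (log2 fold change -0.51, adjusted p = 2.10e-07), without overlap.

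Per kilobase of exon, which allows genes to be compared, the abundant members changed their order. In WT mice Snap25 led with 6959 ± 586 normalized counts per kb (SD, n = 11), followed by Cplx1 with 6798 ± 584, Cplx2 with 6084 ± 424 and Vamp2 with 5621 ± 678. The means of the first pair were closer than their SD. In rNLS8 mice Cplx1 led with 7513 ± 1137 (SD, n = 10), and Cplx2 with 4708 ± 363, Snap25 with 4144 ± 367 and Vamp2 with 3638 ± 630 followed. Stx1a stood at 2020 ± 232 in WT and 1225 ± 209 in rNLS8 mice.

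Each batch was also tested alone. Within batch A, 12 members were lower and 3 higher (4.83% and 6.99% of 18580 genes tested there), and within batch B 24 were lower and 10 higher (19.8% and 19.3% of 18220 genes). Stx11 and Vamp9 had too few counts to be tested within batches. Syt10 had a log2 fold change of -1.30 (SE 0.19) in batch A and of -0.61 (SE 0.12) in batch B, and Stx5a rose by 0.54 (SE 0.11) and 0.26 (SE 0.041). A direct test of genotype by batch called no member and none of 19537 genes (0%), with the adjusted p of Syt10, Stx5a and Syt15 at 0.848 in edgeR. At an unadjusted p under 0.05 it held 3 members, Syt10 (p = 0.00405), Stx5a (p = 0.00782) and Syt15 (p = 0.0156), and 5.6% of all genes, and DESeq2 called 1 gene. At an unadjusted p under 0.05 in edgeR, the count was 9 members and 2392 of 19899 genes without mouse T61342, and 7 members and 1802 of 19837 genes without mouse T60303, both rNLS8 mice of batch A. The counts over all genes thus rose as well.

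**Figure D4:**
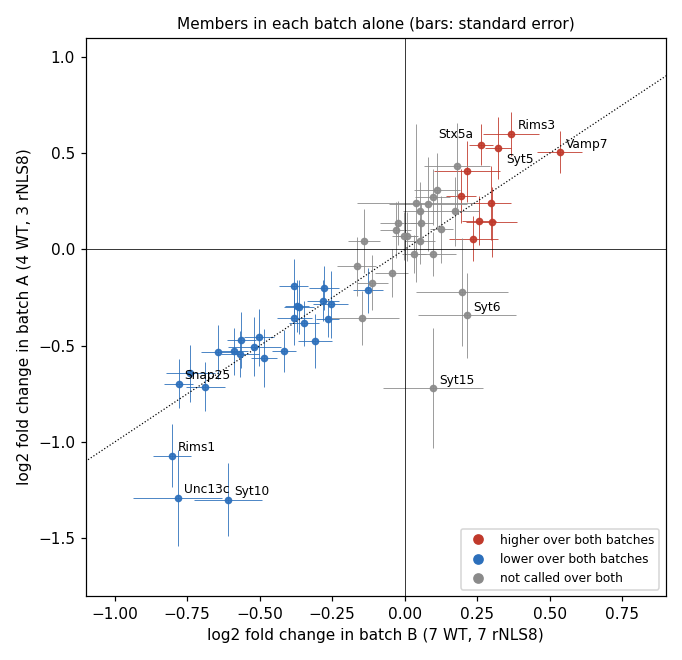
Log2 fold change of the 59 members tested within batches, in batch A (4 WT and 3 rNLS8 mice, vertical axis) against batch B (7 WT and 7 rNLS8 mice, horizontal axis). Bars give the standard error, colours the call over both batches and the dotted line equality. Syt10 (-1.30 and -0.61) lies farthest below the line among the lower members.

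The lower members included many long genes. The 25 lower members had a median span of 67.9 kb from first to last exon, the higher members with a span 21.8 kb, and the members not called 33.6 kb, against 21.3 kb over all genes. Of 16 members of at least 100 kb, 9 were lower (56.2%) and 1, Syt14, was higher, where 33.4% of 2308 such genes were lower and 10.6% higher. Of 44 shorter members, 16 were lower (36.4%) and 9 higher (20.5%), where 20.1% of 14643 such genes were lower and 24.6% higher. The Spearman correlation of span and log2 fold change was -0.338 across 60 members and -0.126 across all genes, as a description across genes of the same libraries. Vamp2, with a span of 3.85 kb, and Vamp1, with 6.73 kb, were short genes that fell, and Rims2, with 486 kb, was a long gene that was not called.

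**Figure D5:**
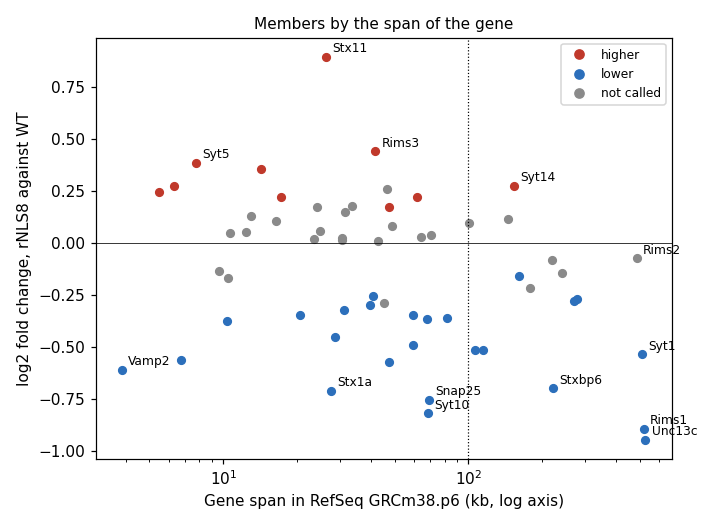
Log2 fold change of rNLS8 against WT mice (vertical axis) by the span of the gene in kb (horizontal log axis) for 60 members, with colours for the call and a dotted line at 100 kb. Unc13c, Rims1 and Syt1 lie low at the long end, whereas Vamp2 lies low at the short end and Rims2 near 0 at the long end.

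Other presynaptic genes outside these families were mostly lower too. Of 53 such genes listed by function, 34 were lower (64.2%), 2 were higher (3.77%) and 17 were not called, with a median log2 fold change of -0.25. The shares over all genes tested were 21.2% lower and 22.4% higher. The ATPase that takes spent SNARE complexes apart and its adaptors all changed, with Nsf (-0.26), Napb (-0.59) and Napg (-0.32) lower and Napa (0.49, adjusted p = 6.07e-07) higher. Napa, which encodes alpha-SNAP, had 3857 to 4778 normalized counts in WT and 5140 to 8033 in rNLS8 mice, without overlap, while Napb, the neuronal beta-SNAP, moved the opposite way. Among 18 genes of the active zone and of priming, 13 were lower and none higher. Erc2, a scaffold that binds RIM, fell from 2686 to 3273 to 1196 to 1870 (log2 fold change -0.94, adjusted p = 2.21e-12), and Cadps2, a priming factor, had -0.83.

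Vesicle proteins were mixed. Of 13, 8 were lower and 1 was higher (Syngr3, 0.21), beside 21.2% lower and 22.4% higher over all genes tested. Sv2c, a vesicle glycoprotein, fell by 49.9%. Syp, the gene of synaptophysin and a common measure of vesicle content, was not called (-0.03, adjusted p = 0.740). Of 4 vesicular transmitter transporters, Slc17a6 (-0.74) and Slc32a1 (-0.35) were lower, and Slc17a7, the glutamate transporter of most cortical terminals, was not called (0.05, adjusted p = 0.575). Of 14 endocytosis genes, 8 were lower, with Synj1, which uncoats retrieved vesicles, at -0.65.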

How the data were processed

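Neocortex RNA of 21 mice was sequenced by the authors, who aligned reads to GRCm38 (mm10) and deposited whole counts per gene symbol without normalization. Their processing notes name HISAT, HISAT2, Bowtie, Bowtie2 and RSEM without roles, and the counter is not given in the sources used here. Total counts were 20700912 to 22263809 per mouse, without molecular identifiers.

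Groups, batch and mouse number came from the labels. Each mouse has its own number, but nothing further says that libraries are independent, so p-values measure the spread between these libraries. No pair of libraries was a duplicate: the chi-square per gene between pairs was at least 4.727.

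Genes were filtered with edgeR 4.0.16 in R 4.3.3 (filterByExpr, minimum count 10, minimum total 15), scaled by TMM and tested two-sided by the quasi-likelihood test with genotype and batch, with Benjamini-Hochberg adjustment over all genes tested and a threshold of 0.05. The standard error is the log2 fold change over the square root of its F statistic. Counts were normalized to a common effective library size, the mean over mice. The 2553 rows that repeat a symbol with a suffix were kept, 5 of them for members. Positions, spans and promoters came from RefSeq GRCm38.p6 (64 of 64 members matched) and exon lengths from GENCODE M21 (63 of 64). The test was checked on simulated data.

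Values are described for the core genes of neuronal fusion and for the 12 called members with the largest absolute log2 fold change, a mean of at least 50 counts and the same direction in both batches. The members, lists and tests were chosen with earlier results of these data known. Alternatives were DESeq2 1.42.0 with and without batch, edgeR without batch, other scalings and filters, each batch alone, Xist as a covariate, no repeated rows and leaving out each mouse. Leaving out mice T60303 and T61340 together was added after seeing the data. Some genes are not reported here by name.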

Additional observations from a re-analysis of the deposited data

Results flagged for a closer look

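In 9 of 61 members 1 rNLS8 mouse lay apart from the other 9 by Dixon's criterion for 10 samples, where the gap to the nearest mouse exceeds 0.466 of the whole range. Chance flags about 1 in 20 groups, but the members share the same mice and are not independent. The 10 mice span both batches, and 8 of the 9 cases fall on T61340 and T60303, which are among the 3 rNLS8 mice of batch A.

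Mouse T61340 stood apart in 5 of them. It was lowest for Rims1 (gap of 0.678 of the range, 2275 against 2934 in the next mouse), Stxbp5l (0.471, 1442 against 2066) and Vamp4 (0.535, 960 against 1180), and highest for Stx5a (0.492, 1185 against 1020) and Syt5 (0.562, 5563 against 4423). Without this mouse the log2 fold changes were -0.84, -0.21, -0.42, 0.32 and 0.33 in that order, and each stayed past the threshold.

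Mouse T60303 stood apart in 3. It was lowest for Syt11 (0.578, 14621 against 17054) and highest for Unc13b (0.49, 1117 against 926) and Unc13d (0.603, 49.97 against 29.3). None of these was called, with or without it. Mouse T70267 was highest for Syt6 (0.48, 1292 against 841), where the log2 fold change went from 0.04 to -0.08 without it, both not called.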

How the results depend on the processing

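Of the 36 called members, 32 were called whichever single mouse was left out. Cplx3 lost the call without mouse T61340, Vamp8 without mouse T60303 or T70261 and Stxbp3 in 10 of these fits (Vamp8 also without the batch term), and Stx11 fell below the count filter in some. Of the 32, 31 (24 lower, 7 higher) were also called in every other alternative over both batches, Stxbp4 being lost under scaling by library size only and also in each batch alone. Leaving out single mice gave 25 to 26 lower and 9 to 13 higher members. Scaling by library size only gave 19 higher and 24 lower members (8 more higher: Cplx1, Snap23, Stx2, Stx3, Stx6, Stx18, Stxbp5 and Syt11) and shifted the median of all genes to 0.0758. The share of falls among calls went from 69.4% to 55.8% in the members and from 48.7% to 32% over all genes. Batch A alone gave 12 lower and 3 higher members, and 11 lower and 1 higher among the other presynaptic genes. It holds fewer mice. Without mice T60303 and T61340 together, 26 were lower and 11 higher. No alternative turned the sign of a called member.

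Signs that turned were all of members not called, and the cause was not tested. Rims2 lay at 0.0057 under library size only. In batch A alone Snap29 and Stx12 lay at -0.023, Syt6 at -0.34, Unc13b at 0.043 and Vamp5 at -0.22. In batch B alone Snap47 lay at -0.031, Stx16 at -0.00056, Syt15 at 0.097 and Syt7 at -0.022. With Xist as a covariate Snap47 was at -0.00034, and without mice T60303 and T61340 Syt15 was at 0.0068 and Unc13d at -0.011. Leaving out single mice gave -0.035 to 0.044 for Snap47, -0.0016 to 0.024 for Stx12, -0.010 to 0.044 for Stx16, -0.077 to 0.13 for Syt6, -0.069 to 0.20 for Unc13d and -0.016 to 0.12 for Vamp5.

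The interaction of genotype and batch called no member in the alternatives run for it, which were DESeq2, library size only, no filter and leaving out each mouse. Unc13d, Syt15, Vamp5 and Vamp9 had low counts and standard errors of 0.15 to 0.25 on the log2 scale. No paired analysis was possible because each mouse number belongs to a single library.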
